A study of Mus musculus with 3 samples.

Results

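The genes described here are 10 germline genes that were chosen by name: *Dazl*, *Ddx4*, *Mael*, *Sycp1*, *Sycp3*, *Syce1*, *Hormad1*, *Tex101*, *Asz1*, and *Slc25a31*. All 10 have a row in the table of 55421 named genes, of which 21926 are protein-coding. Their counts were read in 3 RNA-seq libraries of ALSCs (replicates 1, 2, and 3), a primed mouse stem cell cultured with Activin A and LIF. The columns of the table are named EPI_AL_1 to EPI_AL_3 and were matched to the ALSC samples by AL and the replicate number, since the sample titles do not use these names. ALSCs were derived from epiblasts of embryos at embryonic day 6.5, from ICR females mated with GOF/GFP males, whose transgene reports *Oct4* enhancer activity. The study calls the libraries biological replicates and the labels do not name separate cultures, so the spread given here is that between these libraries. ALSCs are the only condition analysed, and no germ cell sample was analysed beside them.

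These genes act in germ cells and meiosis. In somatic cells, and in the embryo after implantation, genes of this kind are known to carry DNA methylation on CpG-containing promoters, and the same promoters are bound in pluripotent cells by PRC1.6, a Polycomb complex that includes the DNA-binding proteins E2F6 with TFDP1 and MGA with MAX. E2F proteins bind the letters TCCCGC, and MGA with MAX binds the E-box CACGTG. Both motifs hold a CpG. DNA methylation was not measured in these libraries, so the counts show how much RNA was present and not what kept it low.

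Reference promoters are shown first, because the CpG content is what the genes are known for. The sequences come from RefSeq on GRCm38.p6, and a window for each of the 10 genes was found, with 250 bases before and 50 bases after the RefSeq start site. The 4 sequences below are the 250 bases before the start, read 5′ to 3′ on the strand of the gene, with each CpG in capitals. *Dazl*, *Hormad1*, and *Slc25a31* are genes without a count, and *Sycp3* is the gene with the most counts. They lie at chr17:50293621-50293870 (minus strand) for *Dazl*, chr3:95559427-95559676 (plus) for *Hormad1*, chr3:40708621-40708870 (plus) for *Slc25a31*, and chr10:88459337-88459586 (plus) for *Sycp3*.
Dazl: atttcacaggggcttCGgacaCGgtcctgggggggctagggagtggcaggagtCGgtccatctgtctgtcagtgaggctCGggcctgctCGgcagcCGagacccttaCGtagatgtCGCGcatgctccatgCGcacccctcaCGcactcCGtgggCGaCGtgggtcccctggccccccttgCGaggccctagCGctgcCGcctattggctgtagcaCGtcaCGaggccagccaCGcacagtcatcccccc
Hormad1: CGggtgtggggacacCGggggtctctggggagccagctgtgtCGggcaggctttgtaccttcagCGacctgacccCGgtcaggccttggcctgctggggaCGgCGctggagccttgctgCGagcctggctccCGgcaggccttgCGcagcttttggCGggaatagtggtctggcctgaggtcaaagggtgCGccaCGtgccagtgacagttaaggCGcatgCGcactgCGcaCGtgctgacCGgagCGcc
Slc25a31: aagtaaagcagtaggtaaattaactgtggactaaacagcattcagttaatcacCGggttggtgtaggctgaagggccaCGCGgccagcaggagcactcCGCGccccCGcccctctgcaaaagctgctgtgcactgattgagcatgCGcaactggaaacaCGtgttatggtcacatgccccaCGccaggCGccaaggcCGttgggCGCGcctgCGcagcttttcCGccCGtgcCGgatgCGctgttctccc
Sycp3: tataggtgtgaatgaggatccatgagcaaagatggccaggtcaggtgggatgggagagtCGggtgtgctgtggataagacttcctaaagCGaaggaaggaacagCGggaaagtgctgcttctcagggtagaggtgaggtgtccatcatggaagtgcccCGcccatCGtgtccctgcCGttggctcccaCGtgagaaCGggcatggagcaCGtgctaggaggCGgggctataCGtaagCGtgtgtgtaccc

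The stretches hold 20 CpG for *Dazl*, 19 for *Hormad1*, 18 for *Slc25a31*, and 12 for *Sycp3*. Over the whole window of 300 bases, the number of CpG in the 10 genes ran from 14 in *Syce1* to 38 in *Ddx4*. The ratio of observed to expected CpG, which corrects for the C and G content, ran from 0.625 in *Syce1* to 0.978 in *Ddx4*, with a median of 0.782. Over the 21263 windows of protein-coding genes the median ratio was 0.567. A window with a ratio of at least 0.6 and at least 55% G and C is called CpG-rich here, a limit that was set after the sequences had been seen. By this limit 8 of the 10 genes were CpG-rich, against 41.0% of the windows of protein-coding genes, and the other two, *Asz1* and *Syce1*, had the ratio but lay at 54.3% and 54.7% G and C. The RefSeq start site of *Tex101* lies 4625 bases inside the gene as the authors' table draws it, and that of *Ddx4* 165 bases inside. For the other 8 genes the RefSeq start lay within 18 bases of the end of the gene in the table.

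The E-box was present in 6 of the 10 windows, *Mael*, *Slc25a31*, *Hormad1*, *Sycp1*, *Sycp3*, and *Ddx4*, with 8 matches in all. It was found in 7.8% of the windows of protein-coding genes and in 7.15% of all 32851 windows. The same 6 windows held TCCCGC on either strand, which 25.8% of the windows of protein-coding genes held. Both motifs together were in 2.67% of the windows of protein-coding genes and in 1.99% of all windows. Since both motifs hold a CpG, CpG-rich windows are the closer background. Of 7093 protein-coding genes with such a window, 835 held the E-box, 3365 held TCCCGC, and 393 held both. TCCCGC is therefore common in CpG-rich windows. In the 10 genes no match to the one motif overlapped a match to the other. *Dazl*, *Asz1*, *Syce1*, and *Tex101* held neither, which says only that these letters are not in these windows. The E-box sites are shown with 10 bases on each side and the motif in capitals, and 7 of the 8 lay within 100 bases before the start. Their positions are chr1:166238952-166238977 for *Mael*, chr3:40708768-40708793 for *Slc25a31*, chr3:95559610-95559635 and chr3:95559647-95559672 for *Hormad1*, chr3:102936179-102936204 for *Sycp1*, chr10:88459513-88459538 and chr10:88459534-88459559 for *Sycp3*, and chr13:112652324-112652349 for *Ddx4*.
Mael, 223 bases before the start: ccaggcctacCACGTGacaatccccg
Slc25a31, 93 bases before the start: caactggaaaCACGTGttatggtcac
Hormad1, 57 bases before the start: aagggtgcgcCACGTGccagtgacag
Hormad1, 20 bases before the start: gcgcactgcgCACGTGctgaccggag
Sycp1, 94 bases before the start: gagaacccggCACGTGggaagggaaa
Sycp3, 64 bases before the start: cgttggctccCACGTGagaacgggca
Sycp3, 43 bases before the start: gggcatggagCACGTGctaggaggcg
Ddx4, 29 bases before the start: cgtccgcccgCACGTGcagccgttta

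**Figure D1:**
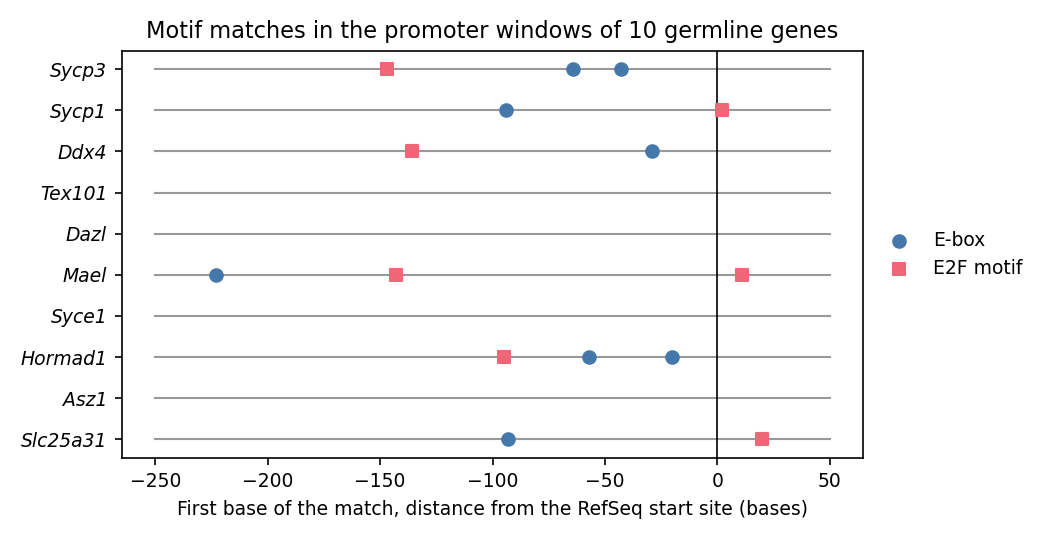
Matches to the E-box (circles) and to the E2F motif on either strand (squares) in the promoter windows of the 10 genes, by the distance of the first base from the RefSeq start site in bases. The vertical line is the start site. 6 genes hold both motifs and 4 hold neither.

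The 3 libraries held 18088505, 18724038, and 18037342 counts on named genes, and 1 count on a gene with 1 kb of exons equalled 0.0534 to 0.0554 FPKM. Of the 5 epiblast markers, *Pou5f1* (Oct4), *Nanog*, and *Sox2* were at 648, 171, and 119 FPKM. *Otx2* and *Fgf5* were much lower, at 5.08 and 3.89 FPKM. Among markers of other cells, the fibroblast genes *Dcn* and *Lum* had no count, and 2 of 6 fibroblast genes were above 3 counts in every library, *Thy1* at 6.88 FPKM and *Col1a1* at 5.05 FPKM, with a summed level of the list of 11.3 to 12.7 FPKM. For extraembryonic endoderm 3 of 7 genes were, at 1.39 to 1.43 FPKM in sum, with *Dab2* highest at 0.906 FPKM and *Ttr* at 0. For trophoblast 3 of 6 genes were, at 1.71 to 2.11 FPKM in sum, with *Eomes* highest at 1.32 FPKM, and *Cdx2* and *Elf5* had a single count each over all libraries. Of all protein-coding genes, 60.3% were above 3 counts in every library. *Eomes* is also reported by the paper in ALSCs and EpiSCs, by RT-qPCR. The part of cells of these other kinds in the few germline counts was not tested.

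The 10 germline genes were barely represented in ALSCs. In all they took 25, 26, and 31 counts in replicates 1, 2, and 3. No gene of the 10 reached 1 FPKM in every library, a level that 45.7% of protein-coding genes reached, and none reached 1 FPKM in any single library. A count of 0 was read as allowing up to 3 counts, for counting error only. A total of 2 of the 10 genes, *Sycp1* and *Ddx4*, had more than 3 counts in every library, as 60.3% of protein-coding genes did. At the other end, 6 of the 10 had no count in any library, against 26.4% of protein-coding genes, and 7 of the 10 stayed at or under 3 counts in every library, against 34.6%. In these bulk cultures, a low level in every cell and a higher level in few cells cannot be told apart.

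**Figure D2:**
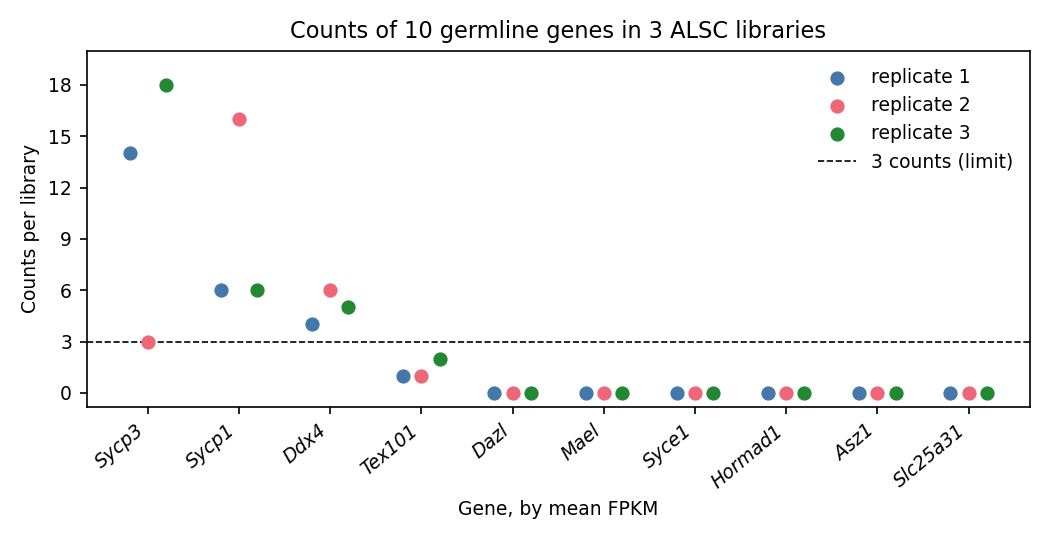
Counts of the 10 germline genes in each ALSC library, ordered by mean FPKM, with the limit of 3 counts as a dashed line. *Sycp3*, *Sycp1*, and *Ddx4* lie above the limit in at least 2 libraries, *Tex101* stays under it, and 6 genes are at 0 in all 3 libraries.

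Among the RNA-binding proteins of germ cells, *Dazl* (ENSMUSG00000010592; GRCm38 chromosome 17, 50279395 to 50293636) encodes a translational regulator that germ cells need to enter gametogenesis. It had 0 counts in all 3 libraries. At its length, 3 counts would be 0.0419 to 0.0435 FPKM, the lowest limit of the 6 genes without a count. *Ddx4* (ENSMUSG00000021758; chromosome 13, 112598333 to 112652475), or Vasa, is an RNA helicase of the germ granule. Its counts were 4, 6, and 5, which is 0.0734, 0.106, and 0.0920 FPKM. The mean was 0.0906 ± 0.0165 FPKM (SD, n = 3), and the level from the summed 15 counts had a 95% exact Poisson interval of 0.0508 to 0.150 FPKM. The value in each library thus lay just above its limit of 0.0532 to 0.0552 FPKM. *Ddx4* had the most CpG in its window of the 10 genes, more than 93.5% of the windows of protein-coding genes.

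*Mael* and *Asz1*, of the piRNA pathway, which silences transposons in the germline, were both without a count. *Mael* (ENSMUSG00000040629; chromosome 1, 166201201 to 166238747) encodes a protein of this pathway, and 0 counts in a single library allow up to 0.0925 to 0.0960 FPKM. *Asz1* (ENSMUSG00000010796; chromosome 6, 18050964 to 18109061) encodes an ankyrin repeat protein of the germ granule, for which the limit was 0.0566 to 0.0588 FPKM. No 50-base word of the *Mael*, *Asz1*, *Dazl*, *Ddx4*, *Syce1*, *Tex101*, or *Slc25a31* transcripts occurred in a transcript of another gene, so sharing of reads with copies does not apply to them at that word length.

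The meiotic chromosome genes held most of the counts. *Sycp3* (ENSMUSG00000020059; chromosome 10, 88459569 to 88473236), which encodes a component of the chromosome axis, had 14, 3, and 18 counts in replicates 1, 2, and 3, or 0.612, 0.127, and 0.790 FPKM. Replicates 1 and 3 were well above the limit and replicate 2 was at it. The mean of 0.510 ± 0.343 FPKM (SD, n = 3) was the highest of the 10 and higher than that of 48.3% of protein-coding genes. Part of these reads may not belong to *Sycp3*. Of its 1264 exonic bases, 660 (52.2%) lie under exons of *Chpt1* on the opposite strand, a gene of phospholipid synthesis with 331, 258, and 245 counts and 1.83 ± 0.32 FPKM (SD, n = 3). Of the 50-base words of the *Sycp3* transcript 49.6% were unique to it. Whether strand was used in counting is not given, and without it reads from this pair cannot be told apart over the shared bases.

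*Sycp1* (ENSMUSG00000027855; chromosome 3, 102818499 to 102936100) encodes the transverse filament of the synaptonemal complex, which joins homologous chromosomes in meiosis. Its counts were 6, 16, and 6, or 0.0933, 0.240, and 0.0935 FPKM, so replicate 2 was the high library here, whereas it was the low library for *Sycp3*. The mean was 0.142 ± 0.0848 FPKM (SD, n = 3), and 0.0934 FPKM without replicate 2. Of its 50-base words 96.3% were unique, and the rest were shared with the pseudogene *Sycp1-ps1*. *Syce1* (ENSMUSG00000025480; chromosome 7, 140777229 to 140787852), of the central element of the same complex, had 0 counts in each library, with a limit of 0.110 to 0.114 FPKM. *Hormad1* (ENSMUSG00000028109; chromosome 3, 95559677 to 95587671), whose product marks unsynapsed axes, was also at 0, with a limit of 0.0927 to 0.0962 FPKM. Since 72.8% of its words were unique and the rest were shared with *Gm15529* and *Gm7167*, some reads of *Hormad1* could have been lost in counting.

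The remaining genes have other roles in germ cells. *Tex101* (ENSMUSG00000062773; chromosome 7, 24668007 to 24676675) encodes a glycoprotein of the germ cell surface. It had 1, 1, and 2 counts, or 0.0334, 0.0322, and 0.0669 FPKM, all under the limit of 0.0967 to 0.100 FPKM. *Slc25a31* (ENSMUSG00000069041; chromosome 3, 40708855 to 40726096) encodes the ADP/ATP carrier of meiotic cells and had 0 counts in each library, with a limit of 0.0753 to 0.0782 FPKM. The carriers that somatic cells use were abundant, with *Slc25a5* at 418 ± 49.2 FPKM and *Slc25a4* at 87.7 ± 10.1 FPKM (SD, n = 3). With these related genes so high, *Slc25a31* still had no read counted on it.

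By mean FPKM the order of the genes with counts was *Sycp3*, *Sycp1*, *Ddx4*, and *Tex101*. *Sycp3* exceeded *Sycp1* in 2 of 3 libraries, and their ranges overlapped. *Sycp1* was above *Ddx4* in 3 of 3 libraries, with overlapping ranges and Poisson intervals. *Ddx4* and *Tex101* had separate ranges but overlapping intervals, and *Tex101* was under its limit. No order was tested, because 3 libraries cannot give a two-sided sign test p below 0.25.

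A test of variation between the libraries beyond counting error could be made for the 3 genes with at least 10 counts in total. The chi-square test of homogeneity, with Benjamini-Hochberg adjustment over all 16944 genes tested, called *Sycp3* (adjusted p = 0.00965). It did not call *Sycp1* (adjusted p = 0.0908) or *Ddx4* (adjusted p = 0.916). That is 1 of 3, and 47.2% of all genes tested were called with all libraries. Many of those genes have far more counts, so they are not a like background. Without replicate 1 the share was 8.11%, and the chi-square test still called *Sycp3* (adjusted p = 0.0138). Replicate 2 decided the *Sycp3* call: without that library it had an adjusted p of 0.665 by the chi-square test (42.9% of genes called). Its mean was then 0.701 FPKM. When the variance also held edgeR's common dispersion, with which 0.543% of genes were called, the adjusted p of *Sycp3* was 0.378 in the chi-square test. That dispersion was estimated from these same libraries and takes in the variation the test looks for. This setting therefore cannot decide whether *Sycp3* varied.

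The levels were then set beside the promoters. Of 16502 protein-coding genes with a promoter window, 7093 were CpG-rich, and 77.1% of these were at 1 FPKM or more in every library and 2.61% had no count in any. Of the 8 CpG-rich germline genes 0 reached 1 FPKM in every library, and 4 had no count in any. Genes with CpG-poor windows, which have a ratio under 0.4, had no count in 56.3% of 6170 cases. In ratio of observed to expected CpG, the 10 germline genes ranged from *Syce1* and *Sycp3*, above 54.3% and 57.7% of the windows of protein-coding genes, to *Ddx4*, above 90.3%. All these shares are descriptions, without a test. Genes with both motifs were mostly expressed, since 75.3% of the 393 genes with a CpG-rich window and both motifs were at 1 FPKM or more in every library and 3.82% had no count. Within the 10, the 3 genes above the limit in any library, *Sycp3*, *Sycp1*, and *Ddx4*, all held both motifs, as did 3 of the 6 genes at 0.

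**Figure D3:**
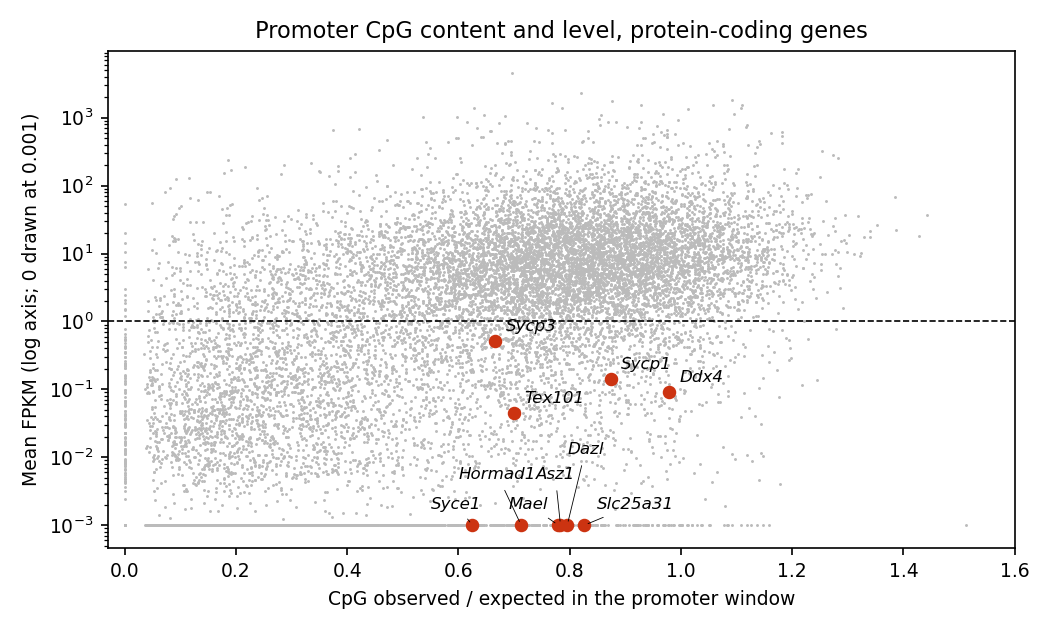
Mean FPKM of the 3 ALSC libraries (log axis, 0 drawn at 0.001) against the ratio of observed to expected CpG in the promoter window, for 16502 protein-coding genes (grey) and the 10 germline genes (red). The germline genes lie at ratios from 0.625 to 0.978 and all under the dashed line at 1 FPKM, which 77.1% of CpG-rich genes reached in every library.

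The nearest protein-coding gene was taken on each side, and 7 of these 20 neighbours had a mean of 1 FPKM or more. Of all protein-coding genes 47.5% had such a mean. At least 1 such neighbour was found for 6 of the 10 genes, and on both sides for *Dazl*. The same share over all protein-coding genes was not computed, so these counts are descriptions only. *Hormad1*, at 0, ends 1262 bases before *Golph3l* on the same strand, a Golgi gene with 627, 740, and 712 counts and 13.3 ± 0.98 FPKM (SD, n = 3). *Sycp1* lies 16985 bases from *Tspan2* at 4.96 FPKM, and *Dazl* 88720 bases from *Rftn1* at 3.17 FPKM. *Asz1*, *Mael*, *Slc25a31*, and *Ddx4* had no neighbour with a mean of 1 FPKM or more, although *Slc38a9*, 8275 bases upstream of *Ddx4*, was at 0.988 FPKM.

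Other germline genes of the same pathways were counted in 4 lists of 41 genes. Of the 41, 12 had no count in any library, a share near the 26.4% of all protein-coding genes. Above 3 counts in every library were 13, against 60.3% of protein-coding genes, and 4 reached 1 FPKM in every library, against 45.7%. Their median was 0.0437 FPKM, against 0 for the 10 genes and 0.682 for all protein-coding genes. *Syce2*, which encodes another protein of the central element, was the highest by far, with 1621, 1297, and 1289 counts and 39.0 ± 5.67 FPKM (SD, n = 3). All of its 50-base words were unique and no exon of another gene overlapped it. Its window was CpG-rich with a ratio of 0.704 and held TCCCGC but no E-box. Thus 1 gene of the central element was well expressed where *Syce1*, *Syce3*, and *Tex12* had no count in any library.

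In the other lists, the mitochondrial phospholipase *Pld6* of the piRNA pathway was at 2.78 ± 0.16 FPKM and the meiotic histone methyltransferase *Prdm9* at 1.62 ± 0.496 FPKM (SD, n = 3). *Tdrd5*, a Tudor protein of the germ granule, was at 1.16 ± 0.114 FPKM (SD, n = 3), with 2.54% of its exonic bases under a gene on the opposite strand. *Hormad2*, the paralog of *Hormad1*, had 7, 7, and 2 counts. *Stag3*, a meiotic cohesin subunit, had 44, 70, and 74 counts, and its window held both motifs and a ratio of 1.06. The recombinase *Dmc1*, the meiotic inducer *Stra8*, and the helicase *Mov10l1* had no count. Of the 36 genes of these lists with a window, 15 were CpG-rich, near the 41.0% of the windows of protein-coding genes. An E-box was in 9 of the 36, against 7.8% of the windows of protein-coding genes. TCCCGC was in 16 of the 36, against 25.8%, and both motifs were in 2, against 2.67%. Of the 7 markers of germ cell specification, 1 reached 1 FPKM in every library (*Kit*, 1.31 FPKM), against 45.7% of protein-coding genes. *Dppa3* was at 1.67, 0.419, and 1.06 FPKM in replicates 1, 2, and 3. By mean, *Tfap2c* was at 0.83, *Nanos3* at 0.71, *Prdm14* at 0.306, *Prdm1* at 0.12, and *Dnd1* at 0.11 FPKM.

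RNA of factors known to silence germline genes was present in every ALSC library, and their proteins were not measured here. All 14 PRC1.6 subunits were at 1 FPKM or more in every library, as 45.7% of protein-coding genes were, with means from 4.80 FPKM for *Ring1* to 72.9 FPKM for *Tfdp1*. The DNA-binding subunits *E2f6*, at 14.6 ± 1.16 FPKM, and *Max*, at 19.3 ± 0.807 FPKM (SD, n = 3), were both among them. *Mga* was at 4.47, 9.65, and 9.14 FPKM (mean 7.75 ± 2.86, SD, n = 3), with the low value in replicate 1. The subunits *Pcgf6* and *L3mbtl2* were at 14.2 and 15.6 FPKM. The H3K9 methyltransferases *Setdb1*, *Ehmt1*, and *Ehmt2* were at 11.1, 14.0, and 33.0 FPKM. Of the 7 DNA methylation genes, 5 reached 1 FPKM in every library (45.7% of protein-coding genes did). *Dnmt3b*, a de novo methyltransferase, was the highest at 281 FPKM, with *Dnmt1* at 49.6 and *Dnmt3a* at 11.8 FPKM, *Uhrf1*, which guides maintenance methylation, at 97.1 FPKM and the remodeler *Hells* at 45.8 FPKM. The remaining genes of that list, the germline cofactor *Dnmt3l* (0.171 FPKM) and the germline enzyme *Dnmt3c* (0.432 FPKM), were low. The paper reports RNA of *Dnmt1*, *Dnmt3a*, *Dnmt3b*, and *Dnmt3c* as downregulated in ALSCs. It also reports DNMT3A protein as sporadic in ALSCs, but in almost the whole nucleus in EpiSCs. No EpiSC library was analysed here. By the chi-square test, 6 of the 14 PRC1.6 subunits, 3 of 3 H3K9 methyltransferases, and 5 of 7 DNA methylation genes varied between libraries, against 47.2% of all genes tested. A low value in replicate 1 was not particular to *Mga*. *Dnmt1* was at 37.7, 56.5, and 54.6 FPKM and *Ehmt1* at 9.83, 16.1, and 16.1 FPKM in replicates 1, 2, and 3. *Hdac2* went the other way, at 76.9, 64.8, and 72.6 FPKM. A separate list held the 3 TET enzymes, of which 2 reached 1 FPKM in every library, against 45.7% of protein-coding genes. *Tet1* was at 7.64, *Tet3* at 1.80, and *Tet2* at 0.358 FPKM by mean. The part of any of these factors in the low germline levels was not tested.

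**Figure D4:**
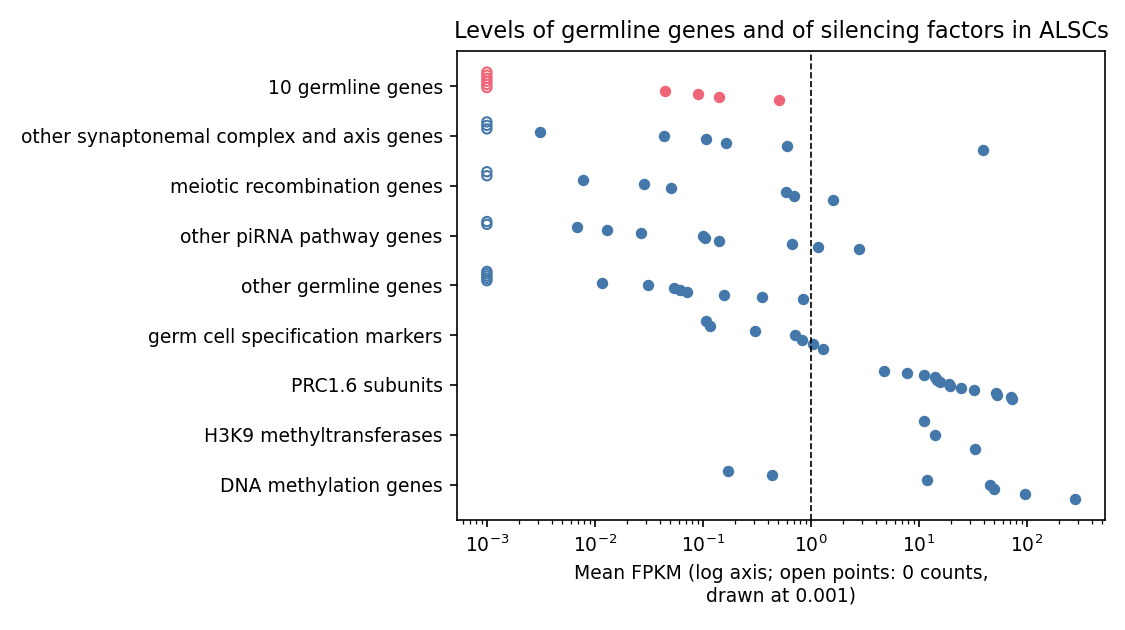
Mean FPKM of 3 ALSC libraries (log axis) for each gene of the lists, a point per gene, with genes without a count as open points drawn at 0.001 and a dashed line at 1 FPKM. The 10 germline genes (red) lie at or under 0.510 FPKM, and the PRC1.6 subunits at 4.80 FPKM or more.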

How the data were processed

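Total RNA of ALSCs was sequenced as polyA libraries. The authors mapped paired-end reads to GRCm38, and the submitters' processing notes name HISAT2 2.0.5. The counting program and its use of strand are not given in the sources used here. The authors deposited raw counts per gene without normalization, with gene lengths. Its 3 columns of other samples were not used. The 317 of 55738 rows without a gene name held 0.165% to 0.182% of counts and were left out. FPKM was computed from the deposited counts, the table's gene length, and the total on named genes. Library sizes for the chi-square test were scaled with edgeR's TMM factors (0.968, 1.02, and 1.01), and genes with at least 10 counts in total were tested at an adjusted p of 0.05. Software was edgeR 4.0.16 and DESeq2 1.42.0 in R 4.3.3, and pandas 2.3.3, SciPy 1.17.1, NumPy 2.4.6, and matplotlib 3.10.9 in Python 3.11.15. The test was run on counts simulated with counting error only. Changes were planted in genes with more counts than the 10 genes have. The simulation therefore does not judge how well the test finds changes in them. Promoters came from RefSeq (GRCm38.p6) and transcripts and exons from GENCODE M21 of the same build, whose gene ends equal those of the table for the 10 genes. The genes and lists were chosen with earlier results of these data known. All list members are counted, and those named include the highest of a list and defining members of a complex or lineage, besides paralogs, neighbours, and genes at 0. Intervals and limits cover counting error only, as PCR copies of 1 molecule could not be told apart.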

Additional observations from a re-analysis of the deposited data

How the results depend on the processing

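No paired analysis was possible because ALSCs are the only group and no replicate has a partner. The number of the 10 germline genes above the limit in every library was 2 at 3 counts, 0 at a limit of 10 counts, and 4 when a single count was enough. It was 2 to 3 when a replicate was left out, the third gene without replicate 2 being *Sycp3*. The number varying between libraries was 1, but 0 with the common dispersion and 0 to 1 when a replicate was left out, with 0 only without replicate 2. No gene of the 10 reached 1 FPKM in every library with TMM or DESeq2 scaling, on the TPM scale, at a limit of 0.5 FPKM, or without any one replicate. The order of the 4 genes with counts did not change on the TPM scale, with TMM sizes, or without any one replicate. The adjusted p of *Sycp3* in the chi-square test ran from 0.00965 to 0.665 over the alternatives, and an exact multinomial test, added after the data were seen, gave an unadjusted p of 0.00127. None of the 24 values of single levels under an alternative moved by 1 SD or more. That limit cannot judge a left-out replicate, because dropping 1 of 3 values always moves their mean by less than 1 SD. Without replicate 2 the level of *Sycp1* went from 0.142 to 0.0934 FPKM, and that of *Sycp3* from 0.510 to 0.701 FPKM. With only the 250 bases before the start, a window added after the data were seen, 4 genes held both motifs instead of 6.

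Depth limits these results, since 1 read decides whether a gene is at 0 and 3 counts stand for 0.0419 to 0.132 FPKM at the lengths of the 10 genes.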
